A study of Mus musculus with 10 samples.

Results

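The genes described here are Pomc, which encodes the pro-opiomelanocortin precursor, and 9 genes whose products cut, trim, amidate, chaperone or package prohormones: Pcsk1, Pcsk2, Cpe, Pam, Scg5, Pcsk1n, Chga, Chgb and Scg2. The set is defined by gene symbol, not by a threshold on values, and each of the 10 symbols matched 1 of the 29527 genes of the deposited table. All 10 were among the 17268 genes tested, those with a mean log2 value over all samples of at least 3.32, which is 10 on the linear scale. Transcripts were measured by bulk RNA sequencing of the dissected intermediate lobe (IL) of the mouse pituitary at 2 to 3 months of age, with 4 wild-type (WT), 3 p27-/- and 3 p27-/-;Sox2+/- samples. The p27-/- samples lack both copies of Cdkn1b, the gene of the cell cycle inhibitor P27, in every cell of the animal, and the p27-/-;Sox2+/- samples carry the same p27 genotype with 1 copy of the transcription factor gene Sox2 removed. The mice were of both sexes and of mixed background. Samples with Sox2+/- alone were not analysed here, so an effect of the Sox2 deletion can be read only in the p27-/- setting.

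The IL of the mouse holds a single endocrine cell type, the melanotroph, which makes POMC in large amounts and cuts it into small peptides. The convertase encoded by Pcsk1 releases adrenocorticotropic hormone (ACTH) and β-lipotropin, and the convertase encoded by Pcsk2 cuts these further towards α-melanocyte-stimulating hormone (MSH) and β-endorphin, whereas corticotrophs of the anterior lobe have little of the second enzyme and stop at ACTH. Carboxypeptidase E (Cpe) removes the basic residues left at each cut, and the amidating monooxygenase (Pam) turns a C-terminal glycine into the amide found on α-MSH. The product of Scg5 is the chaperone that the Pcsk2 convertase needs to mature, the product of Pcsk1n is an inhibitor of the Pcsk1 convertase, and chromogranins A and B (Chga, Chgb) and secretogranin II (Scg2) are acidic proteins that help build the dense-core granule. The study compared the genotypes to ask how loss of P27, and a reduced Sox2 dose on top of it, alters IL gene expression, with melanotroph differentiation as one of its questions.

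The values are log2 expression values normalised by the authors, and their spread is given as the standard deviation (SD) between samples. A step of 1 is read here as a doubling. The transformation is not given, so in genes of low level such a step may stand for more. Read counts are not part of the table, so sequencing depth per sample is unknown. Cdkn1b ranged from 8.39 to 8.85 in WT, from 8.04 to 8.27 in p27-/- and from 7.73 to 8.10 in p27-/-;Sox2+/- samples, and Sox2 from 7.34 to 7.76, from 7.08 to 7.45 and from 6.88 to 7.07. Cdkn1b was lower in both mutants without overlap with WT but was still read in them, at a mean of 8.18 ± 0.12 in p27-/- against 8.61 ± 0.19 in WT (SD, n = 3 and 4), and where its reads lie relative to the deleted part was not checked. The p27-/-;Sox2+/- samples lay below all others for Sox2, while p27-/- overlapped with WT. WT replicate 2 and p27-/- replicate 1 stood apart in Prl, the prolactin gene of the anterior lobe, at 17.54 and 16.34 against 11.40 to 14.37 in the other 8 samples. The 7 measured anterior lobe markers, none of them at 0, summed to log2 levels from 13.14 to 17.71 in WT, 12.53 to 16.48 in p27-/- and 13.15 to 14.58 in p27-/-;Sox2+/- samples. Results that rest on these libraries are given with and without them. In bulk samples of this kind, fewer cells of a type cannot be told apart from less RNA per cell.

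Pomc dominated the set. Per kilobase of exon, which is the scale on which genes of different length can be compared, the mean log2 level of Pomc in WT was 18.45 ± 0.43 (SD, n = 4), and it ranked 3 among the 14854 tested genes with a known exon length in each of the 3 genotypes. Pomc alone made up between 2.29% and 4.26% of the summed linear values of a sample, and the 10 genes together between 2.73% and 4.88%. Behind it came the granin genes Chgb at 12.70 ± 0.57 and Scg2 at 12.29 ± 0.17 per kilobase in WT (SD, n = 4), whose ranges overlapped.

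A group of 4 genes followed, whose neighbours in the order overlapped in WT. On the scale per kilobase in WT, Chga was at 11.40 ± 0.29, Scg5 at 11.06 ± 0.38, Cpe at 11.03 ± 0.26 and Pcsk2 at 10.77 ± 0.28 (SD, n = 4). Pcsk1n at 9.19 ± 0.31, Pam at 8.57 ± 0.14 and Pcsk1 at 7.33 ± 0.06 closed the order, each below the range of the one before it (SD, n = 4). Per kilobase, Pcsk2, the convertase gene of the late POMC cuts, stood above Pcsk1, that of the early cuts, in each of the 10 samples. In p27-/- samples Pcsk2 had moved ahead of Scg5 and Cpe in this order, at 11.31 ± 0.17 against 11.30 ± 0.09 and 11.19 ± 0.15 (SD, n = 3), but the ranges of these 3 genes overlapped.

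The transcript of the substrate itself passed the threshold in no comparison of genotypes. Pomc (ENSMUSG00000020660, chromosome 12 of GRCm38.p6 from 3954945 to 3960643) had log2 values of 19.00, 18.28, 18.57 and 18.00 in WT, 18.57, 18.99 and 18.76 in p27-/-, and 18.35, 18.41 and 18.54 in p27-/-;Sox2+/- samples. The WT samples spanned the range of the p27-/- samples up to the highest value of all, while the 3 p27-/-;Sox2+/- samples lay below the 3 p27-/- samples with no overlap. With limma, the log2 fold change was 0.31 in p27-/- against WT (95% interval -0.19 to 0.81, adjusted p = 0.454), -0.03 in p27-/-;Sox2+/- against WT (-0.53 to 0.47, adjusted p = 0.962) and -0.34 between the mutants (-0.87 to 0.20, adjusted p = 0.945). On the linear scale the interval for p27-/- samples ran from 0.875-fold to 1.75-fold of WT, so changes of either direction within it were not excluded with these numbers. Without WT replicate 1, the WT sample with the most Pomc, the log2 fold change rose to 0.49 for p27-/- samples (adjusted p = 0.119) and turned positive, to 0.15, for p27-/-;Sox2+/- samples (adjusted p = 0.712).

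The promoters of Pomc and the convertase genes are shown because the results below turn on these 3 genes. They are RefSeq sequences of GRCm38.p6, from 250 bases before to 50 bases after a transcript start of that table, and were found for 9 of the 10 genes. For Pomc and Pcsk2 this start is the first base of the annotated gene, whereas for Pcsk1 it is base 75089857 of chromosome 13, which lies 437 bases downstream of the first base of the gene, so the Pcsk1 window is within the gene and other starts of Pcsk1 were not searched. Capitals mark matches, on either strand, to motifs of regulators known from POMC cells: CANNTG (the E-box read by NEUROD1 and its partners), TAATCC (the Pitx site), TCACAC (the T-box site of TBX19) and TGACGTCA (the cyclic AMP response element, CRE). No matches of different motifs overlapped in these windows. The sequences lie at chr12:3954695-3954994 for Pomc, chr13:75089607-75089906 for Pcsk1 and chr2:143545883-143546182 for Pcsk2, all on the plus strand.
Pomc: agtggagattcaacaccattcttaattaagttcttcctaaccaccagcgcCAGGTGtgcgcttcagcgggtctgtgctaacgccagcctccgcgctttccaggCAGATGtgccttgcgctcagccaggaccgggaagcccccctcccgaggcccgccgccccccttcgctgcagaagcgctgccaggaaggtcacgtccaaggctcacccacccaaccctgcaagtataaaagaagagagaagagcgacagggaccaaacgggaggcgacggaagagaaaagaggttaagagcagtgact
Pcsk1: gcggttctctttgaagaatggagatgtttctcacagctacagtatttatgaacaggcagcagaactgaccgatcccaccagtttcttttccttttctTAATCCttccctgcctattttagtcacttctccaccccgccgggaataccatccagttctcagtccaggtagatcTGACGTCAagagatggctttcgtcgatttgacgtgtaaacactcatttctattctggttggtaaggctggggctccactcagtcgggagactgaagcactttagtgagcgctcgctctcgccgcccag
Pcsk2: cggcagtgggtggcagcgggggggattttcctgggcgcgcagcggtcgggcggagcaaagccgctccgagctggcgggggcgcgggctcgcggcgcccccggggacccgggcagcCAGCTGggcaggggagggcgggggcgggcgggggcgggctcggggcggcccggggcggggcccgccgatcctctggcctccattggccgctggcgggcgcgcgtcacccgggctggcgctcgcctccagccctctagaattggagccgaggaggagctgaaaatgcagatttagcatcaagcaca

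The convertase promoters shared none of these motifs. The Pcsk1 promoter held a TAATCC from -153 to -148 and a TGACGTCA from -78 to -71 relative to its start at base 75089857 and no CANNTG, whereas the Pcsk2 promoter held a single CANNTG from -135 to -130. A TGACGTCA also lay in the promoters of Chgb, from -72 to -65, and Scg2, from -68 to -61, where the start is the first base of the gene, so that the motif was in the windows of 3 of the 9 genes, against 1.79% of the 32851 RefSeq promoters. A CANNTG occurred in 8 of the 9 genes and in 72.3% of all promoters, a TAATCC in that of Pcsk1 and in 7.06%, and a TCACAC in none of the 9 and in 14.5%. These are matches of letters in short windows, not binding sites, and the genes were not chosen by them. Bases outside the windows were not searched, so a motif without a match is missing from the window only, not from the regulatory region of the gene. The Pomc promoter region that the paper used for its transgene reaches further upstream than the Pomc window shown here. Which proteins read the CANNTG matches of Pomc was not tested. The CRE of both granin genes is shown with 20 bases on either side, for comparison with that of Pcsk1, at chr2:132781550-132781597 on the plus strand and chr1:79440067-79440114 on the minus strand.
Chgb: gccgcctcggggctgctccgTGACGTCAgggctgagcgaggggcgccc
Scg2: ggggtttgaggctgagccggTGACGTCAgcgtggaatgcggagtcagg

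The convertase genes moved in opposite directions in p27-/- samples. Pcsk1 (ENSMUSG00000021587, chromosome 13, 75089420 to 75134861) had log2 values of 9.10, 9.04, 8.98 and 8.997 in WT, 8.64, 8.66 and 8.43 in p27-/-, and 8.39, 8.66 and 8.78 in p27-/-;Sox2+/- samples. All 6 mutant samples lay below all 4 WT samples, which differed among themselves by little, and the mutant groups overlapped. The log2 fold change of Pcsk1 was -0.45 in p27-/- against WT (SE 0.10, 73.0% of the WT level, limma, adjusted p = 0.0206) and -0.42 in p27-/-;Sox2+/- against WT (SE 0.10, 74.9% of the WT level, adjusted p = 0.0498), while the mutants differed by 0.04 (95% interval -0.20 to 0.28, adjusted p = 0.996). The WT sample with the highest Prl had 9.04, within the narrow range of the other WT samples.

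Pcsk2 (ENSMUSG00000027419, chromosome 2, 143546133 to 143816284) had log2 values of 14.10, 13.60, 13.87 and 13.46 in WT, 14.10, 14.39 and 14.38 in p27-/-, and 13.78, 13.92 and 13.90 in p27-/-;Sox2+/- samples. The p27-/- samples were the highest of the series, the lowest of them just above WT replicate 1, and the p27-/-;Sox2+/- samples lay within the WT range. The log2 fold change was 0.53 in p27-/- against WT (SE 0.14, 1.44-fold, adjusted p = 0.0352) and 0.11 in p27-/-;Sox2+/- against WT (95% interval -0.19 to 0.41, adjusted p = 0.738). The test of the difference between the mutants gave -0.42 (95% interval -0.74 to -0.11, limma, unadjusted p = 0.0127, adjusted p = 0.512), so a return towards WT with the Sox2 deletion was not established although no sample overlapped. The RefSeq annotation places 3 long non-coding RNA genes over Pcsk2, and the counting did not use strand, so reads of these genes and of Pcsk2 could not be separated where they overlap.

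Over the 10 genes, 2 passed the threshold in p27-/- against WT, Pcsk2 higher and Pcsk1 lower, where 7.78% of all tested genes passed, 3.16% higher and 4.62% lower. In p27-/-;Sox2+/- against WT, 2 passed, Pcsk1 and Pam, both lower, where 2.71% of all tested genes passed, 0.828% higher and 1.88% lower. Between the mutants limma called 0 of the 10, where 0.145% of all tested genes passed, and 1, Pcsk2, had an unadjusted p under 0.05. The samples of the groups did not overlap for 3 genes in each comparison, against 20.6% of all tested genes in p27-/- against WT, 15% in p27-/-;Sox2+/- against WT and 15.3% between the mutants. These genes were Pcsk1, Pcsk2 and Scg2 in the first comparison, Pcsk1, Pam and Scg2 in the second, and Pomc, Pcsk2 and Pcsk1n in the third. The median log2 fold change of the 10 genes was 0.15, -0.05 and -0.22 in the 3 comparisons, beside 0.01, 0.01 and 0.00 over all tested genes.

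**Figure D1:**
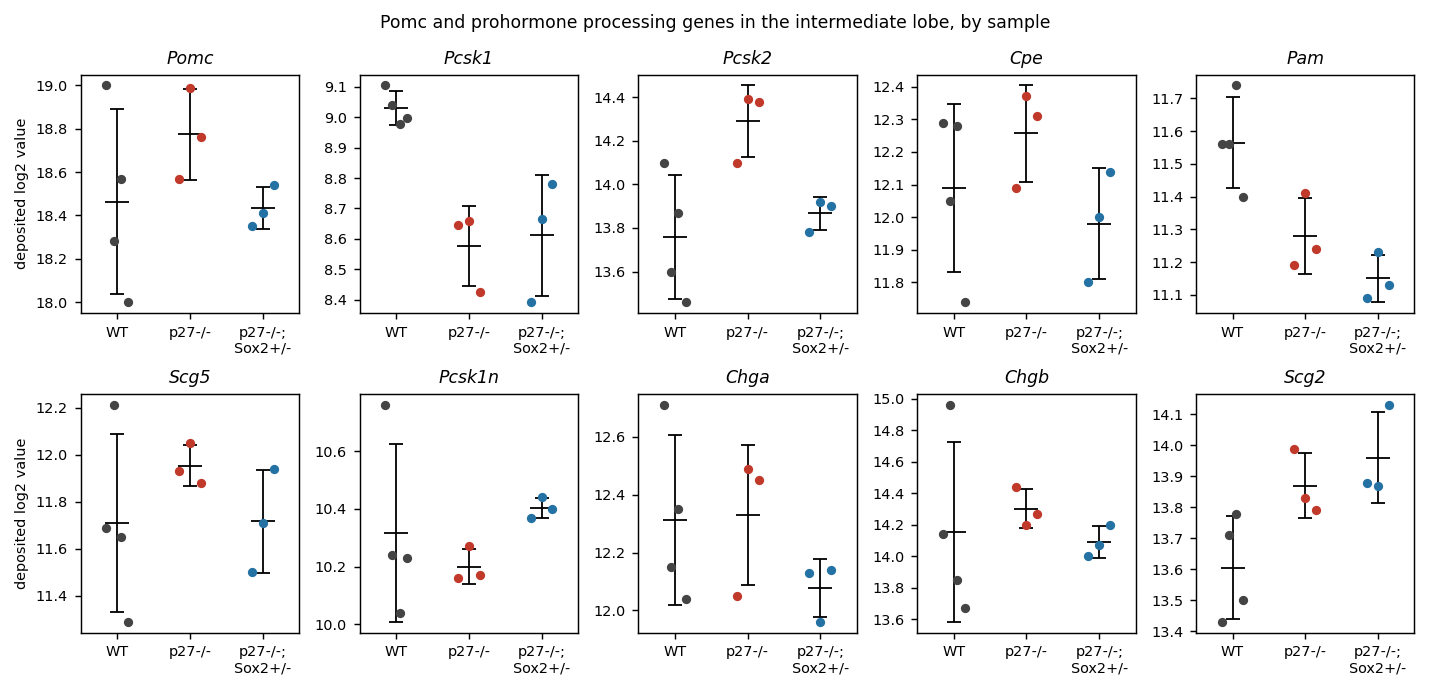
Deposited log2 value (vertical axis, its range set for each gene) of the 10 genes in each sample, by genotype (horizontal axis, 4 WT, 3 p27-/- and 3 p27-/-;Sox2+/- samples); points are samples, and the bars give the mean ± SD. All 6 mutant samples lie below the WT samples for Pcsk1, the p27-/- samples are highest for Pcsk2, and WT replicate 2 stands alone at 14.96 for Chgb.

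The calls lay near the threshold. Pcsk1 in p27-/- kept an adjusted p between 0.0133 and 0.0468 in 17 of the 19 other settings with 1 choice or sample changed, and was at 0.112 without p27-/- replicate 3. Pcsk2 in p27-/- passed in 11 of the 19 and reached 0.14 without p27-/- replicate 3, and Pcsk1 in p27-/-;Sox2+/- passed in 5 of the 19, with 0.181 without p27-/-;Sox2+/- replicate 1. In a fit without WT replicate 2 and p27-/- replicate 1, the libraries with the highest Prl, chosen after the data were seen, the log2 fold changes in p27-/- were -0.48 for Pcsk1 (adjusted p = 0.0634) and 0.58 for Pcsk2 (adjusted p = 0.0652), and those in p27-/-;Sox2+/- against WT were -0.41 for Pcsk1 (adjusted p = 0.0896) and -0.42 for Pam (adjusted p = 0.0537), so that none of the 4 calls passed.

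**Figure D2:**
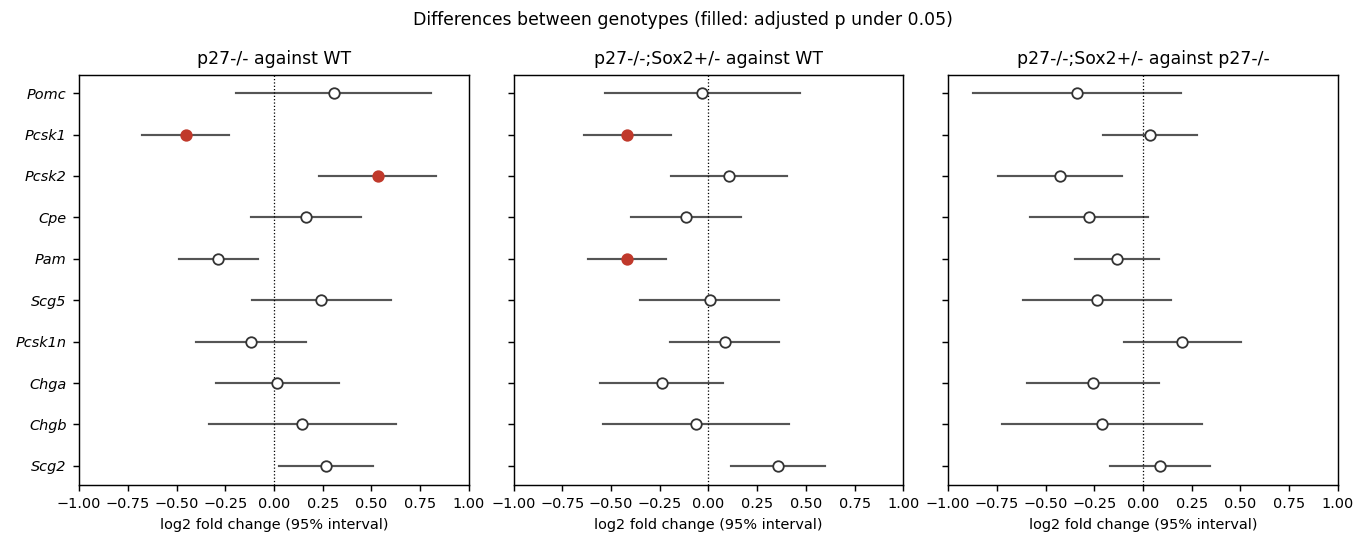
Log2 fold change (horizontal axis) of each gene (vertical axis) in the 3 comparisons of genotypes, with its 95% interval from limma; filled points have an adjusted p under 0.05. In p27-/- against WT, Pcsk1 lies at -0.45 and Pcsk2 at 0.53, and in p27-/-;Sox2+/- against WT, Pcsk1 and Pam both lie at -0.42.

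Set against each other within a sample, which removes any scaling of the whole library, the convertases gave differences that did not overlap between the 3 genotypes. The log2 value of Pcsk2 exceeded that of Pcsk1 by 4.99, 4.56, 4.90 and 4.46 in WT, by 5.45, 5.73 and 5.96 in p27-/-, and by 5.38, 5.25 and 5.12 in p27-/-;Sox2+/- samples. The p27-/-;Sox2+/- samples lay between the WT and the p27-/- samples with no overlap on either side. The WT mean was 4.73 ± 0.25 (SD, n = 4), compared with 5.71 ± 0.25 in p27-/- and 5.25 ± 0.13 in p27-/-;Sox2+/- samples (SD, n = 3 each), so the ratio of both transcripts was 1.98 times that of WT in p27-/- and 1.44 times that of WT in p27-/-;Sox2+/- samples. In two-sided exact permutation tests p was 0.0571 for each mutant against WT and 0.1 between the mutants, in each case the smallest that the design allows, and 0.257 after adjustment over the 9 tests of this kind. All p27-/- samples were already above WT for Pcsk2 and below WT for Pcsk1, so their difference could not overlap with WT. That test therefore adds no support to the calls of these genes. The separation of p27-/-;Sox2+/- from WT rests mainly on Pcsk1, since Pcsk2 lay within the WT range. Between the mutants it rests mainly on Pcsk2, since their Pcsk1 values overlapped. Both restate values already described for single genes, so the order of the 3 genotypes is no further evidence.

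Pcsk1 less its inhibitor Pcsk1n came to -1.29 ± 0.26 in WT (SD, n = 4), and to -1.62 ± 0.11 in p27-/- and -1.79 ± 0.18 in p27-/-;Sox2+/- samples (SD, n = 3 each). The 6 mutant samples ranged from -1.97 to -1.52, and of the WT samples only replicate 1, at -1.66, fell among them. The difference from WT was -0.33 in p27-/- (exact permutation test, two-sided, p = 0.171, adjusted p = 0.3) and -0.50 in p27-/-;Sox2+/- samples (p = 0.114, adjusted p = 0.257 by the same exact test). Pcsk2 less its chaperone Scg5 overlapped in all comparisons, with means of 2.05 ± 0.45 in WT (SD, n = 4), and of 2.34 ± 0.17 and 2.15 ± 0.17 in the mutants (SD, n = 3 each), and adjusted p-values from 0.386 to 0.914 in exact permutation tests. WT replicate 2, at 1.39, lay far below the other WT samples, which were at 2.17 to 2.41, and without it the difference of p27-/-;Sox2+/- from WT turned from 0.10 to -0.12.

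**Figure D3:**
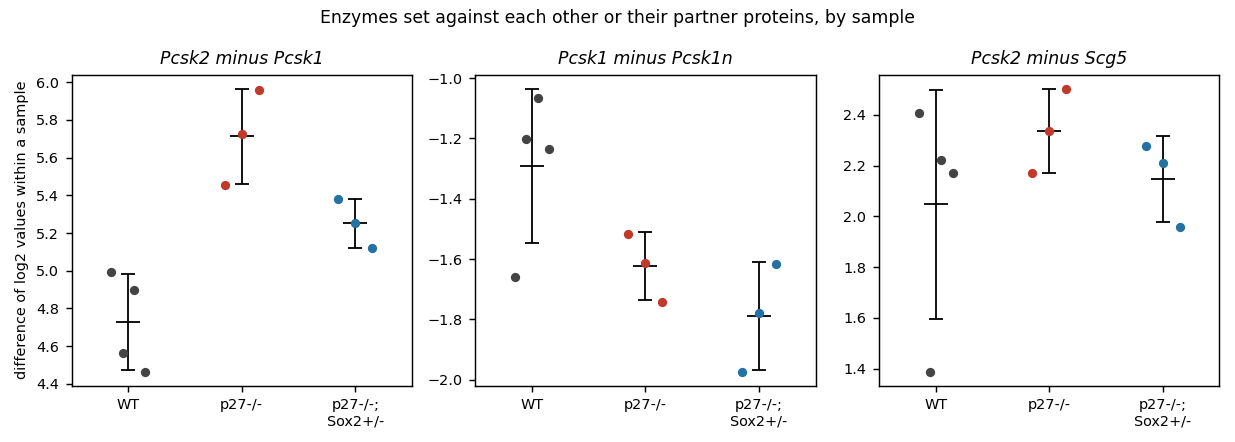
Difference of log2 values within each sample (vertical axis) for Pcsk2 minus Pcsk1, Pcsk1 minus Pcsk1n and Pcsk2 minus Scg5, by genotype (horizontal axis); points are samples, and the bars give the mean ± SD. For Pcsk2 minus Pcsk1 the WT samples lie from 4.46 to 4.99, the p27-/-;Sox2+/- samples from 5.12 to 5.38 and the p27-/- samples from 5.45 to 5.96.

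The transcripts of the partner proteins of the convertases did not pass the threshold. Scg5 (ENSMUSG00000023236, chromosome 2, 113776313 to 113829091) ranged from 11.29 to 12.21 in WT, from 11.88 to 12.05 in p27-/- and from 11.50 to 11.94 in p27-/-;Sox2+/- samples, and its log2 fold changes against WT were 0.24 (adjusted p = 0.398) and 0.01 (adjusted p = 0.99). Its highest value was in WT replicate 2, the library with the most Prl, and without that library the log2 fold change in p27-/- was 0.41 (adjusted p = 0.063). Pcsk1n (ENSMUSG00000039278, chromosome X, 7919822 to 7924410) ranged from 10.04 to 10.76 in WT, from 10.16 to 10.27 in p27-/- and from 10.37 to 10.44 in p27-/-;Sox2+/- samples, with log2 fold changes of -0.12 and 0.08 against WT (adjusted p = 0.619 and 0.795). The protein-coding gene Eras overlaps Pcsk1n in the annotation.

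Of the enzymes that act after the cut, Pam fell in p27-/-;Sox2+/- samples and Cpe showed no change past the threshold. Pam (ENSMUSG00000026335, chromosome 1, 97821091 to 98095853) had log2 values of 11.56, 11.56, 11.74 and 11.40 in WT, 11.19, 11.41 and 11.24 in p27-/-, and 11.09, 11.23 and 11.13 in p27-/-;Sox2+/- samples. The p27-/-;Sox2+/- samples lay below every WT sample, while p27-/- replicate 2 reached the lowest of the WT samples. The log2 fold change was -0.42 in p27-/-;Sox2+/- against WT (SE 0.09, 74.8% of the WT level, adjusted p = 0.0301) and -0.28 in p27-/- against WT (95% interval -0.49 to -0.08, adjusted p = 0.0787), and the mutants differed by -0.13 (95% interval -0.35 to 0.08, adjusted p = 0.951). The value in p27-/-;Sox2+/- samples did not pass with any of the 3 p27-/-;Sox2+/- replicates or WT replicate 3 left out, at up to 0.112. The annotation places 5 other genes over Pam, none of them protein-coding.

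Cpe (ENSMUSG00000037852, chromosome 8, 64592542 to 64693109) ranged from 11.74 to 12.29 in WT, from 12.09 to 12.37 in p27-/- and from 11.80 to 12.14 in p27-/-;Sox2+/- samples. Its log2 fold changes were 0.16 (95% interval -0.12 to 0.45, adjusted p = 0.483) and -0.11 (95% interval -0.40 to 0.17, adjusted p = 0.698) against WT.

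None of the 3 granin genes passed the threshold in any comparison. Scg2 (ENSMUSG00000050711, chromosome 1, 79434366 to 79440026) had log2 values of 13.43, 13.71, 13.78 and 13.50 in WT, 13.99, 13.83 and 13.79 in p27-/-, and 13.88, 13.87 and 14.13 in p27-/-;Sox2+/- samples, so that every mutant sample lay above every WT sample, by little for p27-/- replicate 3. Its log2 fold change was 0.27 in p27-/- (95% interval 0.03 to 0.51, adjusted p = 0.162) and 0.36 in p27-/-;Sox2+/- samples (95% interval 0.12 to 0.60, adjusted p = 0.108), which did not pass the threshold over all tested genes. Chga (ENSMUSG00000021194, chromosome 12, 102554941 to 102565027) ranged from 12.04 to 12.71 in WT, from 12.05 to 12.49 in p27-/- and from 11.96 to 12.14 in p27-/-;Sox2+/- samples, with log2 fold changes of 0.02 and -0.24 against WT (adjusted p = 0.96 and 0.418).

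Chgb (ENSMUSG00000027350, chromosome 2, 132781642 to 132795079) had log2 values of 14.14, 14.96, 13.85 and 13.67 in WT, 14.44, 14.20 and 14.27 in p27-/-, and 14.00, 14.07 and 14.20 in p27-/-;Sox2+/- samples. Its highest and second highest values were those of WT replicate 2 and p27-/- replicate 1, the libraries with the most Prl. Against WT its log2 fold change was 0.15 for p27-/- samples (adjusted p = 0.735) and -0.06 for p27-/-;Sox2+/- samples (adjusted p = 0.915). Without WT replicate 2 the values were 0.41 (adjusted p = 0.0608) and 0.20 (adjusted p = 0.407), so this library decided the size in the first comparison and the sign in the second.

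The genes also differed in how far the replicates of 1 genotype scattered. The pooled SD within genotypes was 0.38 for Chgb, 0.31 for Pomc and 0.28 for Scg5, and 0.13 for Pcsk1 and 0.12 for Pam. Among the 699 tested genes within 1 log2 unit of the mean of Scg5, 96.6% had a smaller SD, and the median of these genes was 0.12. For Pcsk1 the share was 40.4% of 4993 genes and for Pam 45.7% of 1116 genes, so the genes called lower in the mutants were ones of ordinary scatter.

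Part of the scatter was shared with Pomc. Across the 10 samples, Pearson's r with Pomc was 0.885 for Pcsk2, 0.884 for Cpe and 0.83 for Chga, with Spearman's rho of 0.83, 0.915 and 0.782, and after the genotype means were removed r was 0.956, 0.867 and 0.919. Pcsk2, Cpe and Chga were thus high in WT replicate 1 and low in WT replicate 4, as Pomc was. With WT replicates 1 and 4 left out, the samples farthest from the median of Pomc, r over the other 8 was 0.923, 0.833 and 0.783. These are descriptions over 10 libraries, each of which gives both values of its pair, and no p is attached to them.

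The other 6 genes had lower coefficients with Pomc over all samples, and those of some rose once the genotype means were removed. Over the 10 samples r was 0.41 for Scg5, 0.324 for Pcsk1n, 0.154 for Pam, 0.128 for Chgb, 0.0171 for Scg2 and -0.104 for Pcsk1. Within genotypes r was 0.657 for Pcsk1n, 0.565 for Pam, 0.312 for Pcsk1, 0.253 for Scg5, 0.00681 for Chgb and -0.153 for Scg2. Chgb and Scg5 went together, with r of 0.874 over all samples and 0.883 within genotypes, a relation in which WT replicate 2 had the highest value of both genes. By Pearson's r, the tested genes most like Pomc outside the set were Scel, which encodes sciellin, at 0.961, Mrpl34 at 0.942, Rps13 at 0.935, Podxl2 at 0.927 and Nfkbil1 at 0.926. Within genotypes they were Rps12 at 0.973, Yipf1 at 0.971, Sdf2l1 at 0.964, Rcn3 at 0.96 and Scel at 0.96. Over all 10 samples, without removal of the genotype means, r was only 0.693 for Rps12 and 0.675 for Sdf2l1. With WT replicates 1 and 4 left out, it fell to 0.323 for Rps12 and 0.432 for Sdf2l1. It was 0.83 for Yipf1, 0.886 for Rcn3 and 0.968 for Scel over the same 8 samples. None of these 9 genes passed the threshold in any comparison.

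**Figure D4:**
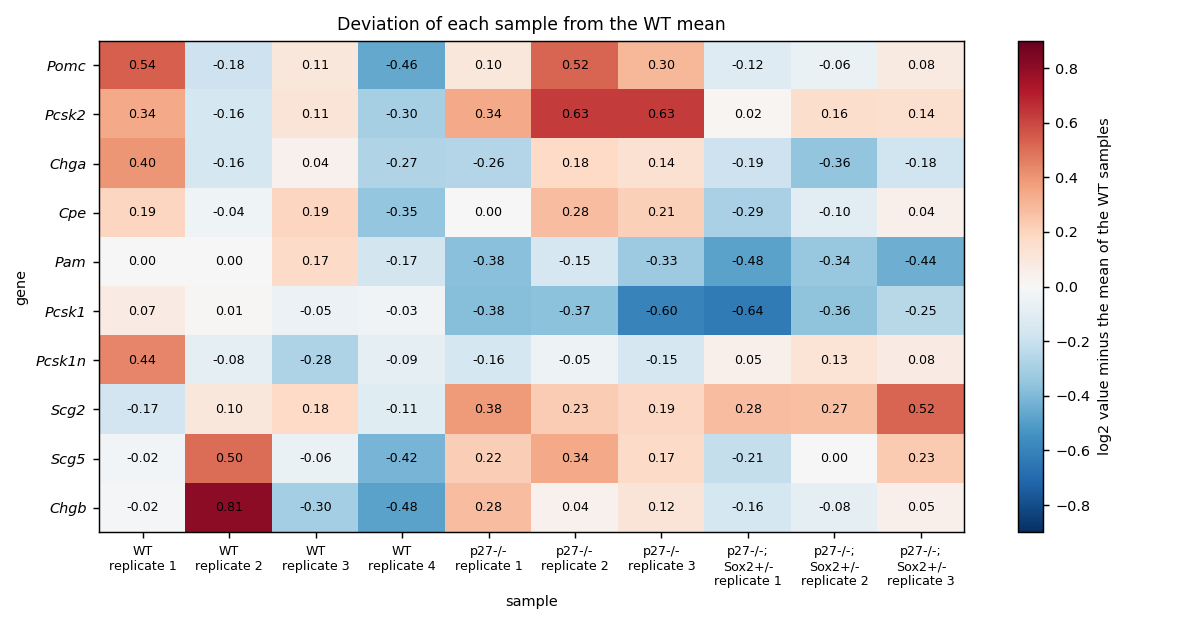
Log2 value of each gene (rows) in each sample (columns) less the mean of the 4 WT samples, as colour and number. WT replicate 1 is high and WT replicate 4 low for Pomc, Pcsk2, Chga and Cpe, WT replicate 2 is high for Chgb and Scg5, and Pcsk1 and Pam are below the WT mean in all 6 mutant samples.

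Among other proteases of the secretory pathway, 1 gene passed the threshold, and only in p27-/-;Sox2+/- against WT. Over all tested genes, 7.78% passed in p27-/- against WT and 2.71% in p27-/-;Sox2+/- against WT. Of the 14 tested genes of that list, which holds the convertases Furin, Pcsk4, Pcsk5, Pcsk6 and Pcsk7 and several carboxypeptidases and cathepsins, 0 passed with limma in p27-/- against WT and 1 in p27-/-;Sox2+/- against WT, with medians of 0.00 and 0.08. The gene was Pcsk5, a convertase of broad tissue distribution, which ranged from 5.80 to 6.28 in WT and from 6.37 to 6.72 in the mutants. Its log2 fold change was 0.57 in p27-/-;Sox2+/- (SE 0.14, adjusted p = 0.0406) and 0.44 in p27-/- samples (adjusted p = 0.0617), and all 6 mutant samples lay above the WT samples. The call in p27-/-;Sox2+/- samples passed in 7 of the 19 other settings, and in 1 of the 10 fits with a sample left out, where limma gave an adjusted p of up to 0.139.

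Of 14 further genes of granule biogenesis and release, 1 passed in p27-/- against WT and 0 in the other comparisons, with medians of 0.16, 0.03 and -0.06. Over all tested genes, 7.78% passed in p27-/- against WT, 2.71% in p27-/-;Sox2+/- against WT and 0.145% between the mutants. The granule gene that passed was Gnas, whose locus encodes the stimulatory G protein α-subunit and a granin-like protein, with 14.75, 15.07, 14.34 and 14.39 in WT and 14.94, 15.49 and 15.59 in p27-/- samples, a log2 fold change of 0.70 (SE 0.20, adjusted p = 0.0467) with overlapping samples. The call passed in 7 of the 19 other settings, and in 4 of the 10 fits with a sample left out, where limma gave an adjusted p of up to 0.194. Of the 12 genes of copper, ascorbate and proton supply to amidation, 0 passed in any comparison with limma. The smallest p-values in p27-/- against WT belonged to Atp6v1a, a subunit of the vacuolar proton pump, at 0.30 (unadjusted p = 0.0129, adjusted p = 0.0987), and Atp7a, the copper transporter that loads Pam, at -0.25 (unadjusted p = 0.0163, adjusted p = 0.113).

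Among 19 other peptide precursor genes, 15 matched the table and 6 were tested. Of these, 1 passed against WT in both p27-/- and p27-/-;Sox2+/- samples, where 7.78% and 2.71% of all tested genes passed. Pdyn, the precursor of dynorphins and, like Pomc, a substrate of the Pcsk2 convertase, had log2 values of 7.82, 7.76, 7.89 and 7.84 in WT, 8.78, 8.98 and 8.97 in p27-/-, and 8.51, 8.73 and 8.63 in p27-/-;Sox2+/- samples. The 3 genotypes did not overlap, the p27-/-;Sox2+/- samples lying between the others. The log2 fold change was 1.08 in p27-/- (SE 0.09, 2.12-fold, adjusted p = 5.33e-05) and 0.79 in p27-/-;Sox2+/- samples (SE 0.09, 1.73-fold, adjusted p = 0.00118), and the mutants differed by -0.29 (95% interval -0.50 to -0.07, adjusted p = 0.503). Both calls against WT held in all 19 other settings.

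Among 10 regulators of Pomc, 1 passed in p27-/- against WT, 0 in p27-/-;Sox2+/- against WT and 1 between the mutants, and it was the same gene. Over all tested genes, 7.78%, 2.71% and 0.145% passed in these comparisons. Crhr1, the receptor of corticotropin-releasing hormone, had log2 values of 5.59, 5.39, 5.58 and 5.62 in WT, 4.75, 4.87 and 4.62 in p27-/-, and 5.31, 5.53 and 5.40 in p27-/-;Sox2+/- samples. The p27-/- samples lay below all others, and the p27-/-;Sox2+/- samples overlapped with WT. The log2 fold change was -0.80 in p27-/- against WT (SE 0.11, 57.5% of the WT level, adjusted p = 0.00146), -0.13 in p27-/-;Sox2+/- against WT (adjusted p = 0.577) and 0.67 between the mutants (SE 0.12, adjusted p = 0.0491). The call between the mutants held in 3 of 10 fits with a sample left out, with adjusted p from 0.0395 to 0.399. Crhr1 is also a marker of corticotrophs, the POMC cells of the anterior lobe.

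The lineage regulators did not pass. Tbx19, the T-box factor that activates Pomc, ranged from 10.58 to 10.81 in WT, 10.67 to 10.82 in p27-/- and 10.80 to 10.90 in p27-/-;Sox2+/- samples, with log2 fold changes of 0.06 (95% interval -0.12 to 0.24, adjusted p = 0.728) and 0.14 (95% interval -0.04 to 0.32, adjusted p = 0.413) against WT. Pax7, which sets the melanotroph fate, ranged from 11.45 to 11.78, 11.69 to 11.93 and 11.52 to 11.97, with 0.23 (adjusted p = 0.247) and 0.19 (adjusted p = 0.417).

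**Figure D5:**
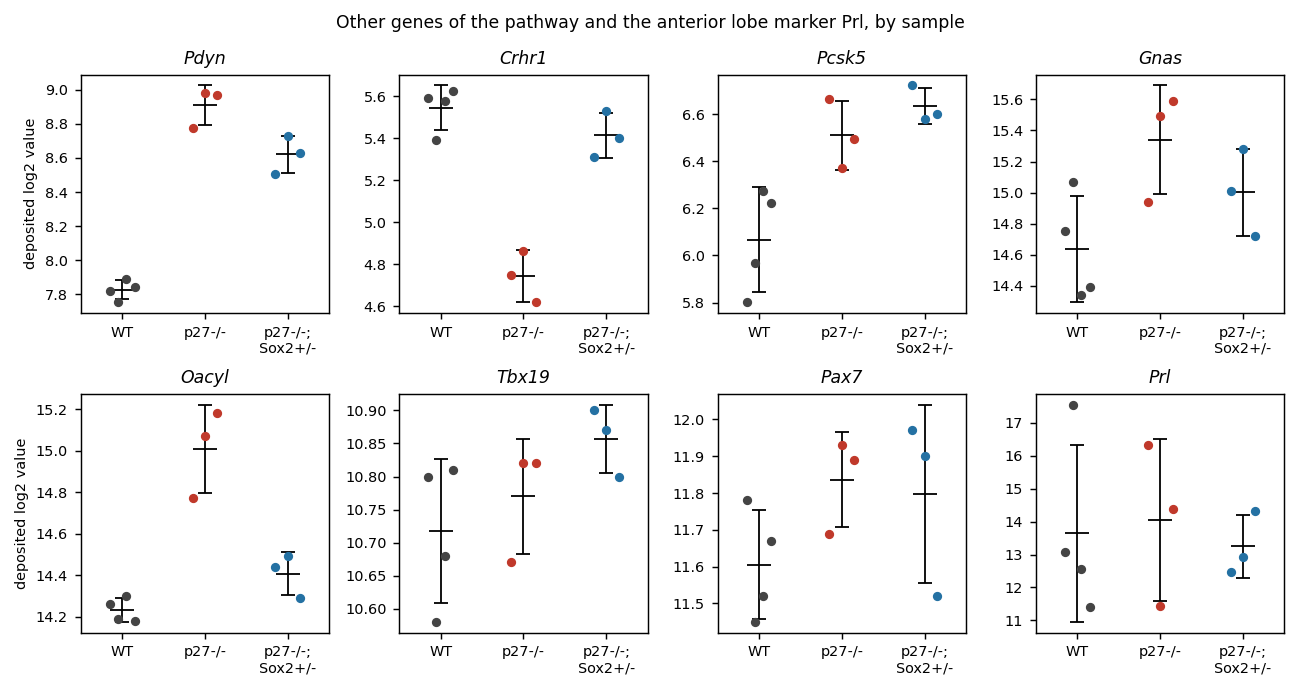
Deposited log2 value (vertical axis, its range set for each gene) of 7 other genes of the pathway and its cells and of the anterior lobe marker Prl in each sample, by genotype (horizontal axis); points are samples, and the bars give the mean ± SD. Pdyn separates the 3 genotypes, Crhr1 and Oacyl set the p27-/- samples apart from the others, and WT replicate 2 is highest for Prl at 17.54.

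The melanotroph markers were high in every sample, Pomc and Oacyl leading them, and some markers of other cell types passed the threshold. Beside the counts given here and below, 7.78% of all tested genes passed in p27-/- against WT. The shares were 2.71% in p27-/-;Sox2+/- against WT and 0.145% between the mutants. All 6 melanotroph markers were tested, and besides Pcsk2 the gene Oacyl passed in p27-/- against WT, at 14.18 to 14.30 in WT, 14.77 to 15.18 in p27-/- and 14.29 to 14.49 in p27-/-;Sox2+/- samples (log2 fold change 0.77, SE 0.11, adjusted p = 0.00161). The summed level of the 6 stem cell markers was 12.17 to 12.24 in WT, 11.30 to 11.89 in p27-/- and 11.75 to 11.93 in p27-/-;Sox2+/- samples, lower in all 6 mutant samples. The sum rests mainly on Cyp2f2, the most abundant of the 6 and the one that passed in p27-/-, at 11.68 to 11.84 in WT and 10.58 to 11.43 in the mutants. Sox9, S100b and Aldh1a2 overlapped with WT in both mutants. The 6 endothelial markers summed to 8.68 to 9.08, 8.27 to 8.62 and 8.40 to 8.82, and 1 of them, Kdr, fell by 0.83 in p27-/- and fell by 0.67 in p27-/-;Sox2+/- samples on the log2 scale (adjusted p = 0.00966 and 0.0459). The Kdr call in p27-/-;Sox2+/- against WT passed in 7 of the 19 other settings.

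The 6 connective tissue markers summed to 11.33 to 11.77, 10.68 to 11.68 and 10.79 to 11.57, with Lum and Pdgfra lower in p27-/- samples (adjusted p = 0.05, before rounding under the threshold, and 0.0459), and the 6 macrophage markers to 8.86 to 9.60, 8.97 to 9.10 and 8.68 to 9.02, with 0 called by limma in each comparison. The 6 pituicyte markers of the adjoining posterior lobe summed to 9.06 to 10.53 in WT, 8.92 to 9.22 in p27-/- and 8.62 to 10.28 in p27-/-;Sox2+/- samples, with 0 called. Of the 7 anterior lobe markers, 1, Fshb, passed in each mutant against WT. Fshb fell by 2.04 in p27-/- and fell by 2.27 in p27-/-;Sox2+/- samples on the log2 scale (limma, adjusted p = 0.028 and 0.0294). Both mutants overlapped with WT for Fshb, and each call passed in 12 of the 19 other settings. Of the 3 corticotroph markers, Crhr1 passed in p27-/- against WT and between the mutants but not in p27-/-;Sox2+/- against WT. Avpr1b, the pituitary vasopressin receptor, had log2 fold changes of -0.38 (adjusted p = 0.0698), 0.10 (adjusted p = 0.719) and, between the mutants, 0.48 (adjusted p = 0.27), with no overlap in the first and the third. No defining marker of these lists was at 0, apart from Lhb, which matched no gene of the table. The part of these cell types in the levels of Pcsk1, Pcsk2 and Pam was not tested.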

How the data were processed

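RNA of dissected IL was sequenced as cDNA libraries from 10 samples (4 WT, 3 p27-/-, 3 p27-/-;Sox2+/-). The authors aligned reads with STAR 2.5.2a, counted them with RSEM 1.3.30 on the Ensembl mouse GRCm38 transcriptome without use of strand, normalised with DESeq2 1.18.1 and deposited log2 values. The transformation is not given in the sources used here; if values of low genes were pulled together, their fold changes are understated. Depth per sample is unknown, so the number of samples limits the precision. The study's methods call the sequenced samples biological replicates; the labels do not name the mice behind them.

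Genes were matched by Ensembl ID. Genes with a mean log2 value of at least 3.32, which is 10 on the linear scale, were tested. They entered 1 limma 3.58.1 fit of all samples (R 4.3.3, mean-variance trend). Benjamini-Hochberg adjustment was over 17268 genes, with a threshold of 0.05. Differences within samples were compared with exact permutation tests (scipy 1.17.1, Python 3.11.15). The model was also run on simulated data in which each gene was drawn on its own. Shifts shared by many genes of a library were not simulated, so that run says nothing about them. Exon lengths came from GENCODE vM1, promoters and positions from RefSeq (GRCm38.p6), with no Cpe promoter used here. The genes and lists were chosen with earlier results of these data known. Named are all 10 genes, Tbx19, Pax7, genes past the threshold in each list (at most 4 per list and comparison, and where none passed the 2 with the smallest p in p27-/- against WT), and the 5 genes most like Pomc by Pearson's r over all samples and within genotypes. Alternatives were each sample left out, a replicate block, Xist as covariate, quantile normalization, median centring, array weights and a fit without trend. Others were fits of 2 groups only, a mean log2 value of at least the log2 of 50, and no filter.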

Additional observations from a re-analysis of the deposited data

Results flagged for a closer look

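Among 42 measures checked in the 4 WT samples, the 10 genes, their differences within samples, marker sums and the other genes named, 1 had a sample that stood farther from the other 3 than expected for a group of 4, where chance alone flags about 1 in 20. This was Fshb, the β-subunit of follicle-stimulating hormone, an anterior lobe transcript, with a log2 value of 7.152 in WT replicate 1 and of 9.24 to 9.64 in the other WT samples, a gap of 0.838 of the range. The value of WT replicate 1 lay within the 5.91 to 7.50 of the mutant samples, so the fall of Fshb in the mutants rested on the other 3 WT samples. None of the 10 prohormone genes, nor a difference between them, stood out in this way in WT.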

How the results depend on the processing

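Over 570 values of the 10 genes (30 log2 fold changes, each refitted in 19 other ways), 516 kept direction and side of the threshold, 29 lost the call, 1 gained it and 24 changed sign. In p27-/- against WT the 2 genes called became 1 with only the 2 groups compared, 0 with a replicate block, 3 with quantile normalization (Pam added), 0 to 2 with a sample left out and 0 without both libraries of high Prl, chosen after the data were seen; the 1343 genes called overall became 831 without filter, 807 with 2 groups, 595 with the block, 402 to 1707 with a sample left out and 771 without those libraries. In p27-/-;Sox2+/- against WT the 2 genes called became 1 with no filter, no trend, median centring or the replicate block and 0 with 2 groups or without those libraries, and 0 to 1 with a sample left out; the 468 overall became 260 with 2 groups, 1240 with array weights, 209 with the block and 79 to 656 with a sample left out. Between the mutants 0 of the 10 were called in every setting, and the 25 overall became 6 without filter, 45 with 2 groups, 8 without trend, 283 with array weights, 15 with quantile normalization, 2 with the block, 0 to 41 with a sample left out and 7 without those libraries. The replicate numbers shared by the groups are not known to pair samples: same-numbered samples had correlations of deviations from -0.238 to 0.182, and the block cannot use WT replicate 4. The causes of these shifts were not tested, beyond the fewer samples or other gene set that each alternative itself sets.

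Signs changed for genes that were not called. In p27-/- against WT, Chga came to -0.00484 with quantile normalization and -0.0729 with the replicate block, and Chgb to -0.016 with the block. In p27-/-;Sox2+/- against WT, Pomc came to 0.075 with array weights, Scg5 to -0.0134 with quantile normalization, -0.132 with the block and -0.0356 with Xist as covariate, and Chgb to 0.204 without the libraries of high Prl. With a sample left out the ranges that crossed 0 were -0.211 to 0.0281 for Pcsk1n, -0.0729 to 0.158 for Chga and -0.016 to 0.414 for Chgb in p27-/-, -0.186 to 0.148 for Pomc, -0.132 to 0.174 for Scg5, -0.00924 to 0.23 for Pcsk1n and -0.226 to 0.204 for Chgb in p27-/-;Sox2+/- against WT, and -0.0473 to 0.146 for Pcsk1 between the mutants. For the differences within samples, 98 of 99 values kept their sign, and Pcsk2 minus Scg5 in p27-/-;Sox2+/- against WT ranged from -0.119 to 0.22.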
